A study of Mus musculus with 8 samples.

Results

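The barcodes named lymphatic endothelial cells of the mouse colon were 209 of the 6188 kept in a single-cell library of sorted large intestine. They were chosen by measured values: a barcode needed at least 500 detected genes, at most 20% of its unique molecular identifiers (UMIs, each counting 1 captured RNA molecule) from mitochondrial genes, at least 3 UMIs of Mmrn1 and 0 UMIs of Cd79a. The gene Mmrn1 encodes multimerin 1, a secreted protein of lymphatic endothelium, and Cd79a encodes a part of the B cell receptor. Their levels in these cells therefore restate the rule. Of the 8646 barcodes in the library, 7093 had enough genes and 6188 also passed the mitochondrial limit. Of these, 211 had at least 3 Mmrn1 UMIs, and 2 of the 211 had a Cd79a UMI and were left out.

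The study examined contacts between lymphatic vessels and intestinal stem cells, per its title. It held 8 libraries from mice, and 4 were used here: sorted large intestine, sorted small intestine, and 2 Visium sections of large intestine. For the sorted libraries intestine was digested, and live cells were combined with sorted LGR5+ stem cells and with sorted lymphatic endothelial cells that carried the CD31, PDPN and LYVE1 proteins. The mice were C57BL/6 and Lgr5-eGFP-ires-CreERT2 on that background, the latter carrying a knock-in that marks stem cells. All mice were untreated as far as the labels say, and the labels gave neither age nor the number of animals combined. The Visium sections, labelled WT, were technical duplicates. Because the sort used the proteins of Pecam1, Pdpn and Lyve1, the share of these cells in the library describes the sort and not the colon. With 1 library per tissue no test between groups was possible, and no p-value is given. Intervals are 95% and cover counting error only.

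Lymphatic endothelial cells line the blind-ended capillaries and the valved collecting vessels that drain fluid, immune cells and, in the intestine, absorbed fat. Their identity is set by the transcription factor Prox1, and their growth depends on the receptor Flt4 (VEGFR3), which binds the growth factor Vegfc. In the gut wall they lie close to crypt bases, and they are known to secrete factors that act on epithelial stem cells, among them reelin and R-spondin 3.

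The sequences directly before the start sites of the genes that the results turn on are shown here, among them a chemokine gene beside its copy. Each is the 250 bases upstream of the start in RefSeq (GRCm38.p6), read 5′ to 3′ on the gene's strand. The chemokine gene Ccl21a (chromosome 4, 42772860 to 42773991) has a near-identical copy, Ccl21d (chromosome 4, 41903613 to 41904743). Their upstream sequences, shifted by 1 base, matched at 248 of 249 positions (99.6%), and the capital letter marks the 1 position that differs.
Ccl21a, chr4:42773992-42774241, minus strand: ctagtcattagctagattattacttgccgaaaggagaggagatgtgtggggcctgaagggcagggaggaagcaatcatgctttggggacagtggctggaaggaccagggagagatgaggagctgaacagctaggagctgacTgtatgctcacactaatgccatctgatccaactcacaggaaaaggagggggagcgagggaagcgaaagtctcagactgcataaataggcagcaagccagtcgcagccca
Ccl21d, chr4:41903363-41903612, plus strand: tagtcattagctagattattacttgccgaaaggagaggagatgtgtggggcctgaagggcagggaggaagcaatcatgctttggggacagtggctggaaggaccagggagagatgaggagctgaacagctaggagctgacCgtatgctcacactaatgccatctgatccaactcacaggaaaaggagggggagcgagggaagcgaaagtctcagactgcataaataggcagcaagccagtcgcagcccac

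For Mmrn1 (chromosome 6, 60944317 to 60989378) and Reln (chromosome 5, 21884454 to 22344705) the capitals mark matches to 7 short motifs searched on both strands: the ETS cores AGGAAG and CGGAAG, the SOX cores ACAAAG and ACAATG, the E box CAGCTG, the GATA core AGATAA and the TATA box TATAAA.
Mmrn1, chr6:60944067-60944316, plus strand: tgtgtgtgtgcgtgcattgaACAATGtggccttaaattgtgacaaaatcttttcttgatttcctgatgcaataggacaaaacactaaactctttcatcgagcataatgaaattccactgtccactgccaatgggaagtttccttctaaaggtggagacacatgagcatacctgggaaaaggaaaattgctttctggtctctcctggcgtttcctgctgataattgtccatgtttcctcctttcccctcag
Reln, chr5:22344706-22344955, minus strand: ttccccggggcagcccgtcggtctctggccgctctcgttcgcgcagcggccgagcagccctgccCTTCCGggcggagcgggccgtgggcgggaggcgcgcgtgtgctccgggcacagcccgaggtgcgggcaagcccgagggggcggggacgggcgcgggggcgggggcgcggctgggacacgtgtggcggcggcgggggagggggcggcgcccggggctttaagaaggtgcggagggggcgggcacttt
The 25 genes with the highest ratio to the other colon barcodes, named further on, were searched in the same way, and 18 of them were in the table. Either ETS core lay in 7 of the 18 (38.9%), beside 39.0% of all 27025 upstream sequences of that length. The SOX cores were in 3 each (16.7%), beside 16.5% for ACAAAG and 2969 of the 27025 for ACAATG. The E box was in 2 (11.1%, beside 12.8%), and the GATA core (10.3% of all) and the TATA box (13.0% of all) were in 0. A match here is a description of letters and not a binding site.

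The 209 cells held a median of 3166 UMIs, from 751 to 111103, and a median of 1660 genes. The other 5979 kept barcodes held a median of 22620 UMIs. The median share of mitochondrial UMIs was 5.55% in the lymphatic cells and 6.43% in the rest. Of the 209, 28 barcodes also held at least 3 UMIs of each of 2 or more markers of another cell type and are called mixed here. They met the epithelial list in 19 cases, the stem cell list in 10, the macrophage list in 7, the colonocyte list in 6, the fibroblast list in 3 and the muscle list in 1. The mixed barcodes held a median of 21076 UMIs and 55.8% of all UMIs of the 209, and they included all 23 barcodes above 10000 UMIs. Counts over gene lists, and some single values, are given a second time over the 181 unmixed cells, which held a median of 2715 UMIs (751 to 7579). Of the 306 barcodes with the highest Scrublet doublet scores, 14 were among the 209, and 12 of these were mixed. The 2 sorted libraries shared 25 barcodes, none of them among the 209. Goblet cell transcripts were not counted in calling a barcode mixed, since all 209 cells and 99.8% of the other barcodes had at least 1 goblet marker UMI.

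**Figure D1:**
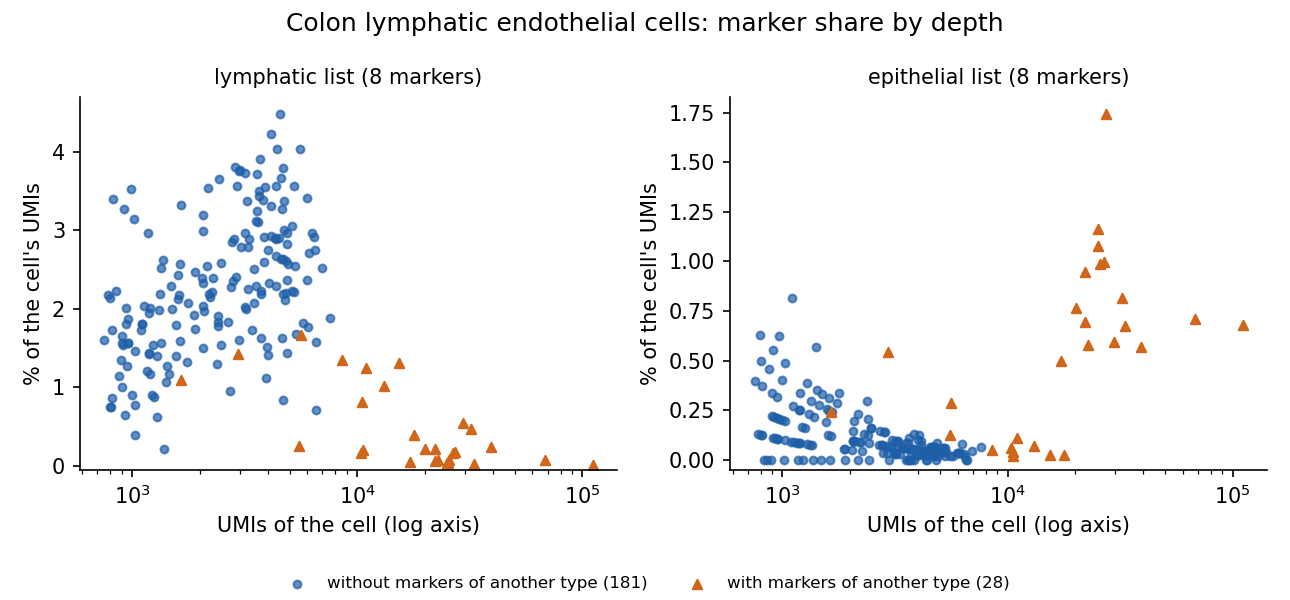
Share of a cell's UMIs (y axis, percent) that came from 8 lymphatic markers (left) or 8 epithelial markers (right) against the cell's UMIs (x axis, log scale). Circles are the 181 unmixed cells and triangles the 28 mixed ones. Barcodes above 10000 UMIs were all mixed, and in the left panel none of them exceeded 1.31%.

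The label was checked in the unmixed cells only, against markers that the rule did not use. In the 181 unmixed cells Lyve1, a hyaluronan receptor of lymphatic capillaries, had a UMI in 95.6% of cells. The share was 90.1% for Ccl21a, a chemokine that draws dendritic cells into lymphatics, and 86.7% for Reln, which encodes the secreted glycoprotein reelin. It was 84.5% for Flt4, 74.0% for Prox1, 63.0% for Pdpn (podoplanin) and 31.5% for Pkhd1l1, a large membrane protein. Lyve1 and Pdpn encode proteins used in the sort, so their shares are not independent of it. After every cell was thinned to 1000 UMIs, Reln was seen in 112 of 156 unmixed cells (71.8%, Clopper-Pearson interval 64.0 to 78.7%). In B cells of the same library (at least 3 Cd79a UMIs, 1 or more of Cd79b and 0 of Mmrn1), which should lack it and had a median of 18275 UMIs before thinning, it was seen in 2 of 332 (0.602%, 0.073 to 2.16%). Thinned shares were 92.9% for Ccl21a and 48.7% for Prox1 in unmixed cells, and 0 of 332 B cells had either, which allows a share of cells with a UMI of up to 0.904% (3 cells of 332). Thinning left out 25 unmixed cells with fewer than 1000 UMIs.

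Markers of other cell types were counted in the same cells. The 8 lymphatic markers, which include Mmrn1 and so are in part fixed by the rule, summed to 24774 CPM (UMI counts scaled to the same total in every group) in the unmixed cells and 17.8 CPM in the other barcodes. Per cell their sum ran from 2168 to 44842 CPM, with a median of 22124. The 12 blood endothelial markers summed to 1329 CPM, with Flt1, Vwf, Esm1, Aplnr and Sox17 at 0 UMIs. That list included Gpihbp1, which these cells also held at 711 CPM. All 4 mesothelial markers were at 0, and so were all 6 B cell markers, of which Cd79a was set to 0 by the rule. The 8 macrophage markers summed to 84.1 CPM in unmixed cells, where Cd68 was at 0, and to 2610 CPM in mixed ones. The 8 epithelial markers summed to 788 and 6814 CPM, and the 8 fibroblast markers to 44.0 and 406 CPM, with Col1a1 and Lum at 0 in unmixed cells. The remaining lists summed in the unmixed cells to 2973 CPM (goblet), 874 (plasma cell), 428 (colonocyte), 95.6 (red blood cell), 89.9 (stem), 30.6 (enteroendocrine), 28.7 (dendritic), 17.2 (T, NK or innate lymphoid), 13.4 (muscle or pericyte), 3.82 (tuft) and 1.91 (glia or neuron). The 8 markers shared by all endothelium summed to 4465 CPM. In the mixed barcodes the 8 lymphatic markers summed to 2559 CPM and the 8 goblet markers to 24418 CPM. The name is therefore less sure for the mixed barcodes.

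Cells with 3 Mmrn1 UMIs lay just inside the threshold and cells with 2 just outside. The 12 cells with 3 UMIs held a median of 1125 UMIs, and 1 of them was mixed. Lyve1 was detected in 83.3% of them and Ccl21a in 58.3%. The 17 cells with 2 UMIs held a median of 1364 UMIs, and 8 of them were mixed. Lyve1 and Ccl21a were each detected in 64.7% of those. Detection in cells with 3 and with 2 UMIs was 41.7% and 58.8% for Reln, and 33.3% and 52.9% for Prox1. It was 58.3% and 29.4% for Flt4, and 16.7% and 11.8% for Pkhd1l1. Summed levels were 1554 and 172 CPM for Ccl21a, and 1192 and 120 CPM for Lyve1. The 114 barcodes with 1 Mmrn1 UMI had a median of 30164 UMIs, and Lyve1 was detected in 19.3%.

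The first comparison set the 209 cells against all other kept colon barcodes and asked which genes mark these cells. Ratios of single genes are over all 209 cells unless stated otherwise. Of the listed genes with enough UMIs, 10 of 11 transcription factors of lymphatic fate, 12 of 13 growth receptors and ligands, 6 of 7 scavenger receptors, 10 of 13 leukocyte traffic genes and 16 of 20 matrix genes were higher. Lower were 6 of 6 plasma cell and 6 of 7 fibroblast markers. A ratio is a log2 ratio of CPM from UMIs summed over the cells of a group, and a gene past 4-fold is called higher or lower. Of 6359 genes with enough UMIs, 501 were called higher (7.88%) and 153 lower (2.41%). Over the 181 unmixed cells, 575 of 4326 were higher (13.3%) and 839 lower (19.4%). The median ratio over all genes was -0.16, and -0.50 over the unmixed cells. The rule chose the cells within this contrast, so these counts describe the cells and test nothing. A gene scarce in the other barcodes could be counted only by being higher in the 209 cells. The shares of the lists are therefore in part fixed by the minimum counts.

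The 25 genes with the highest ratio ran from 11.05 for Sh3gl3, an endophilin family gene, to 7.36 for Dmtn, which encodes the actin-bundling protein dematin. Ccl21a had 5993 UMIs in the 209 cells and 397 in the other 5979 barcodes, a ratio of 10.72 (10.57 to 10.87). Per unmixed cell its level ran from 0 to 30393 CPM with a median of 5620. Reln had 810 and 117 UMIs, a ratio of 9.60 (9.32 to 9.89), and Lyve1 3257 and 533 UMIs (9.42, 9.28 to 9.55). Mmrn1, used by the rule, stood at 10.79. Flt4 stood at 9.68, and Pkhd1l1 at 10.20 on 116 UMIs.
The others were the adhesion receptor Adgrg3 (9.90), Klhl4 (9.12), Megf6 (9.003), Ablim3 (8.79) and the transcription factor Tbx1 (8.65). They went on with the tight junction gene Cldn5 (8.62), the chemokine scavenger Ackr2 (8.58), the Notch pathway gene Dtx1 (8.56), Cyp4b1 (8.41), the receptor Gpr182 (8.39) and the collagen gene Col23a1 (8.30). Last came the lipase carrier Gpihbp1 (7.86), Gpm6a (7.75), the ferroxidase ceruloplasmin Cp (7.71), the caveola gene Cavin2 (7.68), Galnt18 (7.56) and the semaphorin Sema3d (7.41). Each of the 25 had a higher ratio over the unmixed cells, up to 12.02 for Sh3gl3.

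**Figure D2:**
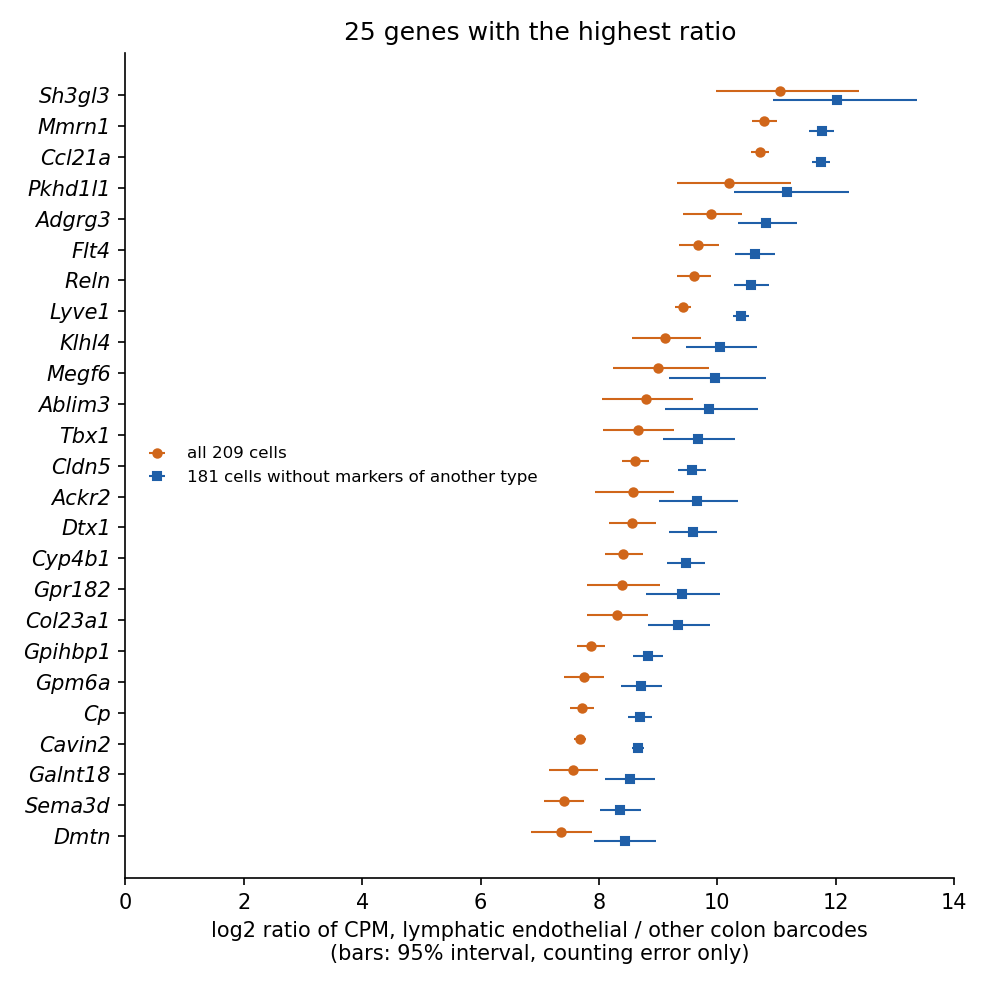
log2 ratio of CPM (x axis) for the 25 genes with the highest ratio of lymphatic endothelial cells to other colon barcodes. Circles are all 209 cells, squares the 181 unmixed cells, and bars 95% intervals for counting error. Every square lies to the right of its circle.

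Ccl21a is 1 of several copies. The count table held 9 entries for the Ccl21 copies and their models. In the 209 cells 1 Ccl21a entry (ENSMUSG00000094686) held 5993 UMIs, a Ccl21b entry held 5, and Gm21541, the older name of Ccl21d, held 2. The other 6 entries held 0. Transcript sequences of the copies were not compared, so how the counting divided reads among them was not tested. The level given is that of the Ccl21a entry and is uncertain as the level of a single copy.

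Transcription factors of lymphatic fate were read first among the gene groups. Of 22 listed factors 11 had enough UMIs, and 10 of these were called higher and 0 lower (median 4.21, or 9 of 10 and 5.54 over unmixed cells). Prox1, the master regulator of lymphatic identity, stood at 351 CPM against 3.10 CPM, a ratio of 6.82 (6.62 to 7.02). The ratio was 6.37 for Maf, 6.42 for Sox18, which acts upstream of Prox1, 4.21 for Nr2f2 (COUP-TFII, its partner), and 3.23 for Nfatc1. Of the 875 Maf UMIs in the 209 cells, 715 came from unmixed cells, where 87.8% had at least 1. Klf4 was close to the rest at 0.15. The valve factor Foxc2 had too few UMIs to be counted, with 23, of which 21 were in unmixed cells.

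Growth receptors and ligands of the vessel followed. Of 24 genes 13 had enough UMIs, and 12 were called higher and 0 lower (median 4.87, or 10 of 10 and 6.23). Flt4 stood at 526 CPM against 0.642 CPM, and the related receptor Kdr (VEGFR2) at 326 against 4.92 CPM (6.05). Its co-receptor Nrp2, which binds Vegfc, stood at 390 against 27.9 CPM (3.81). Nrp1, the blood vessel counterpart, had 10 UMIs in the 209 cells and 0 in the unmixed ones. Tie1 (7.05), Tek (4.87), Eng (5.05) and Bmpr2 (2.01) were among those called higher. So were Calcrl (4.40) and Ramp2 (5.61), which together form the receptor for adrenomedullin. The ligands themselves were scarce: Vegfc had 5 UMIs, and Vegfd, Ccbe1 and Adamts3 had 0. Angpt2, a Tie receptor ligand, had 23.

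Among 12 scavenger and uptake receptors 7 had enough UMIs, and 6 were called higher and 0 lower (median 4.29, or 6 of 6 and 6.33). They were Lyve1, the scavenger receptor Stab1 (6.49), the mannose receptor Mrc1 (3.83), the chemokine scavengers Ackr2 (8.58) and Ackr3 (4.29), and the antibody carrier Fcgrt (2.72). Stab2 had 3 UMIs and Ackr4 had 0. The valve and collecting vessel list had 6 of 14 genes with enough UMIs, with 5 higher and 0 lower (median 5.04, or 4 of 4 and 5.93). The valve integrin Itga9 stood at 5.26, and the connexins Gja1 and Gja4 at 4.82 and 5.47. The valve matrix gene Fn1 was not higher (27.9 against 46.6 CPM). Of the 181 unmixed cells, 31 held none of the 14 valve list genes, 48 held 1, 46 held 2, and 56 held more. The flow sensing list had 5 of 6 genes higher and 0 lower (median 4.25, or 5 of 6 and 5.12). It included the stretch channel Piezo2 (6.86) and thrombomodulin Thbd (3.69), while Piezo1 had too few UMIs (42).

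Genes of leukocyte traffic had 13 of 31 members with enough UMIs, with 10 called higher and 1 lower (median 4.74, or 10 of 10 and 6.22). Besides Ccl21a these were the survival cytokine Il7 (99.7 against 4.06 CPM, 4.62), the alarmin Il33 (3.70), and Spns2 (5.86) and S1pr1 (6.32), a transporter and a receptor of sphingosine 1-phosphate. The adhesion molecules Icam1 (2.98) and Icam2 (5.16) and the guidance genes Sema3a (5.44), Sema3d and Sema6a (4.74) were also higher. The chemokine Cx3cl1 was lower on 3 UMIs (-2.23, -4.50 to -0.68). The adhesion genes of blood venules, Sele, Selp and Madcam1, and the venule receptor Ackr1 had 0 UMIs in the 209 cells, and Vcam1 had 2.

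Secreted factors with known roles in the stem cell niche were few. Of 40 listed genes 8 had enough UMIs, with 5 called higher and 1 lower (median 4.55, or 5 of 5 and 6.86). The 5 were Reln, Rspo3, Ptn, Tgfb2 and Tgfb1. Rspo3, which amplifies Wnt signals at stem cells, had 62 UMIs, of which 56 were in 36 unmixed cells (19.9%). Its level was 52.4 against 0.906 CPM, a ratio of 5.85 (5.39 to 6.31). Ptn, the growth factor pleiotrophin, had 129 UMIs, of which 116 were in 39 unmixed cells (21.5%), and 1 cell alone held 34. Its ratio was 5.84 (5.52 to 6.15). Tgfb2 stood at 155 against 2.95 CPM and was seen in 43.6% of unmixed cells, and Tgfb1 at 139 against 13.2 CPM, in 44.8%. The epidermal growth factor ligand Areg was lower on 1 UMI, set to 3 (-2.98, interval -9.87 to -2.08). Wnt2 had 16 UMIs and Wnt5a 13. Of the other R-spondins, Rspo1, Rspo2 and Rspo4 had 0. The BMP antagonist Grem1 had 28 UMIs, all of them in mixed cells.

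Structural genes of the vessel wall came next. The matrix and anchoring list had 20 of 26 genes with enough UMIs, with 16 higher and 1 lower (median 3.37, or 15 of 18 higher, 1 lower and 4.41). Igfbp5, which binds insulin-like growth factors, had 1628 UMIs, at 1376 against 14.3 CPM (6.59, 6.50 to 6.69). The metalloprotease inhibitor Timp3 stood at 6.09, the basement membrane genes Lama4 and Col4a1 at 4.65 and 3.63, and Ltbp4, which tethers latent TGF-beta, at 4.21. Svep1 was lower on 1 UMI, set to 3 (-2.30, interval -9.19 to -1.40). The junction list had 6 of 12 higher and 0 lower (median 1.95, or 8 of 11 higher, 1 lower and 2.89). Cldn5 led it at 602 against 1.53 CPM, followed by VE-cadherin Cdh5 (6.45), Emcn (6.15) and Pecam1 (5.43). The lipid and caveola list had 8 of 14 higher and 0 lower (median 2.69, or 7 of 12 higher, 3 lower and 4.18). Cavin2 stood at 2062 CPM, and Cav1, Cav2 and Cavin1 at 5.43, 5.25 and 3.93. Apoe was among the 8 only through mixed cells. It had 2480 UMIs in the 209 cells but 74 in the unmixed ones, where its ratio was -1.04. The fat uptake genes Cd36 and Fabp4 had 6 and 11 UMIs.

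In each of the remaining lists 0 or 1 gene was called higher in all 209 cells. No antigen presentation gene was called in the 209 cells (0 of 9, median 0.16). Over unmixed cells 4 of 9 were lower (median -0.997), and these were the MHC class II genes H2-Aa, H2-Ab1, H2-Eb1 and Cd74, at -2.98 to -2.57 for the first 3 and -3.35 for Cd74. Of 13 interferon response genes 9 had enough UMIs and 1, Isg15, was higher (2.05, list median 0.17, or 3 of 7 and 1.42). Of 15 early response genes, which tissue digestion can induce, 13 had enough UMIs and 1, Dusp1, was higher (2.83, list median 0.99, or 3 of 11 higher, 1 lower and 0.49). Of 10 cell cycle genes none was called (median -0.92), and over unmixed cells 6 of 10 were lower (median -2.66). The proliferation marker Mki67 then had 4 UMIs in 181 cells. Of 4 retinoid genes with enough UMIs 1, the retinol binding protein Rbp7, was higher (3.42, list median 0.47, or 2 of 2 and 3.49).

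At the other end stood secretory and surface genes of other cells. The 10 genes with the lowest ratio were the plasma cell genes Mzb1 (-5.08) and Jchain (-4.18), the surface epithelial genes Krt20 (-4.07), Dpep1 (-3.79 on 3 UMIs, -6.07 to -2.24), Cyp2c55 (-3.74), Slc26a3 (-3.52) and Saa1 (-3.33), the gut hormone Pyy (-3.81), the fibroblast gene Dpt (-3.69) and the blood endothelial gene Ly6c1 (-3.30 on 2 UMIs, -6.93 to -2.03). Of 6 blood endothelial markers with enough UMIs, Ly6c1 was the 1 that was lower, and 3 were higher (Podxl, Cd300lg and Gpihbp1, list median 2.66). Over unmixed cells these 3 of 5 were higher, and Ly6c1 and Rgcc were lower (median 6.399). Over unmixed cells, with counts under 3 set to 3, these 10 ratios ran from -4.31 (Mzb1) to -2.12 (Ly6c1). Of the marker lists of other cells, 6 of 6 plasma cell, 6 of 7 fibroblast, 5 of 8 colonocyte, 1 of 8 epithelial, 0 of 8 goblet and 0 of 7 stem cell genes were lower. Over unmixed cells these counts were 4 of 4, 7 of 7, 5 of 6, 8 of 8, 8 of 8 and 5 of 6. In the colonocyte list Mall, a membrane raft gene, was higher instead (2.89, with a UMI in 43.6% of unmixed cells). Of 5 macrophage markers with enough UMIs all 5 were higher in the 209 cells (median 2.44), and over the unmixed cells 0 of 4 were higher and 1 was lower (median -1.92).

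The nearest cell type in the library was blood endothelium. It was represented by 95 barcodes with at least 3 UMIs of Plvap, Flt1 and Cdh5 together and 0 UMIs of Mmrn1, Lyve1, Reln, Prox1 and Cd79a, with a median of 4059 UMIs and 10 mixed barcodes among them. Levels of those 8 genes follow from the rules and are not results. The lymphatic cells held more Ccl21a, Maf, Lcn2, Igfbp5 and Cp, and less Ly6c1, Fabp4, Nkx2-3 and Slco2a1. Of 3567 genes 218 were called higher (6.11%) and 190 lower (5.33%), and with the mixed lymphatic cells left out 210 (8.44%) and 192 (7.71%) of 2489. In the 209 cells 8 of 8 goblet and 5 of 5 macrophage markers were also higher (medians 2.88 and 5.63). Over unmixed cells 0 of 6 goblet markers were called (median 0.35) and no macrophage marker had enough UMIs. The 95 blood endothelial barcodes, mixed ones included, held the 8 epithelial markers at 2285 CPM, beside 788 CPM in the unmixed lymphatic cells. For the 8 muscle or pericyte markers these levels were 211 and 13.4 CPM. The median over all genes was 0.20, or -0.05 over unmixed cells.

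Among the genes not used by either rule, Ccl21a led with 5064 against 1.80 CPM, a ratio of 9.87 on 1 UMI in blood endothelium (8.98 to 16.8). Maf had 875 UMIs in the lymphatic cells and 0 in the blood endothelial ones, at least 7.09 with the count of 0 set to 3. The siderophore binding gene Lcn2 stood at 580 against 3.61 CPM (6.74 on 2 UMIs, 5.47 to 10.4), Igfbp5 at 1376 against 14.4 CPM (6.57, 5.59 to 7.79), Cp at 495 against 1.80 CPM (6.51 on 1 UMI, 5.62 to 13.4) and the polarity gene Pard6g, with 0 in blood endothelium, at 6.15 or more. Lower were Ly6c1 (-9.91 on 2 UMIs, -13.5 to -8.63) and Fabp4, which carries fatty acids in capillary endothelium (9.29 against 6834 CPM, -9.52, -10.53 to -8.68). So were the gut homeobox gene Nkx2-3 (1 UMI, -7.69, -14.6 to -6.79) and the prostaglandin transporter Slco2a1 (3 UMIs, -7.39, -9.67 to -5.82). Col15a1 (3 UMIs, -7.26, -9.55 to -5.69), Thrsp (-6.90), Bcam (1 UMI, -6.81, -13.7 to -5.90) and Esm1 completed them, the last with 0 UMIs against 204 and a ratio of -7.18 or lower.
Other listed genes divided the 2 endothelia. Il7 and Tbx1 had 0 UMIs in the blood endothelial cells, and so did Rspo3, where the ratio was at least 3.27. Sema3d stood at 4.87 on 1 UMI in blood endothelium (3.96 to 11.8) and Il33 at 3.86 on 2 (2.55 to 7.51), Flt4 at 3.38, Piezo2 at 2.82 and Tgfb2 at 2.04. Ptn was less apart, at 109 against 48.7 CPM (1.16, 0.55 to 1.82). Blood endothelial cells held more Igfbp7 (-6.04), Sparc (-5.74), Esam (-5.75), Jam3 (-5.60), Cxcl12 (-5.05) and Nrp1 (-6.67), and more of the flow-induced factor Klf2 (1841 against 226 CPM, -3.03). All of these directions held over the unmixed cells. Of 14 early response genes with enough UMIs 10 were at least 2-fold lower in the lymphatic cells and 0 higher (median -1.57). Over unmixed cells these counts were the same (median -1.77). Of all 3567 genes 392 were at least 2-fold lower. The part of tissue digestion in the ratios between the 2 endothelia was not tested.

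**Figure D3:**
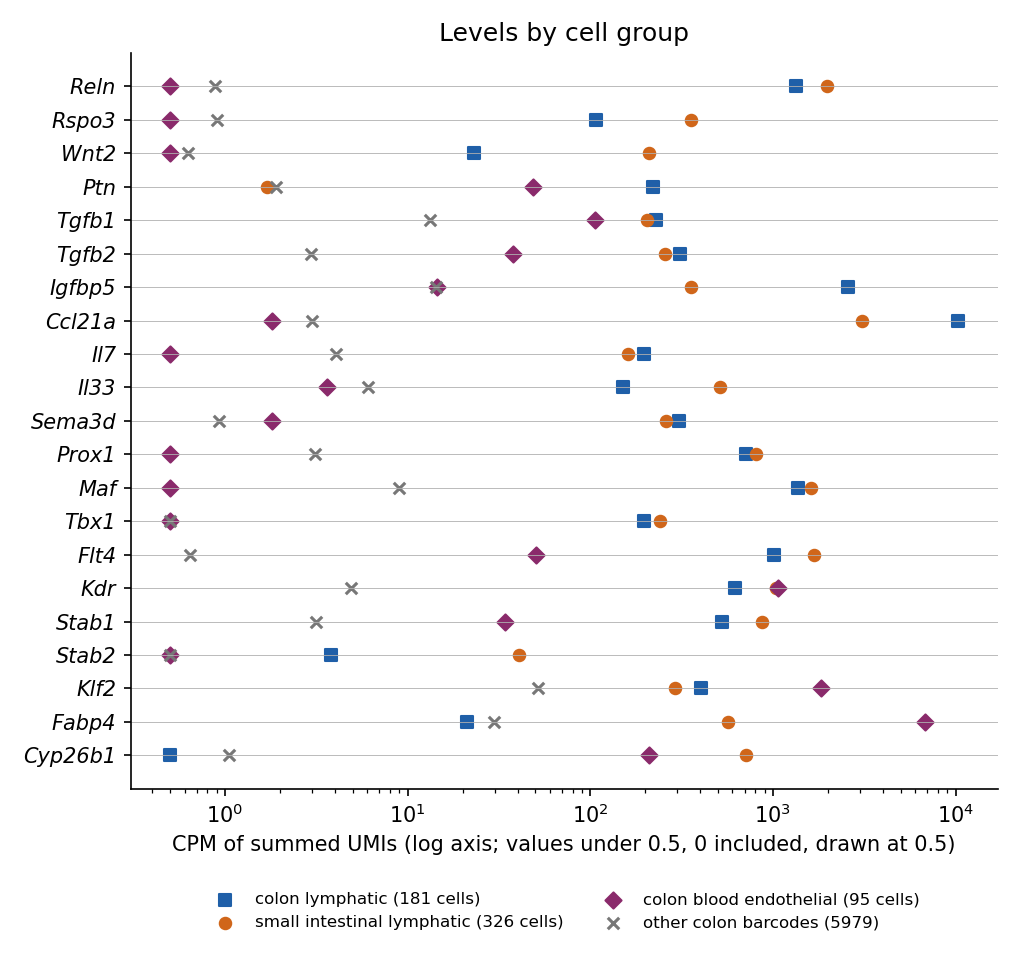
Level in CPM (x axis, log scale, values under 0.5 drawn at 0.5) of 21 genes in 4 groups: 181 unmixed colon lymphatic cells (squares), 326 unmixed small intestinal lymphatic cells (circles), 95 colon blood endothelial cells (diamonds) and the other 5979 colon barcodes (crosses). Ptn is higher in colon than in small intestinal lymphatic cells, and Cyp26b1 and Fabp4 are lower in colon lymphatic cells than in both other endothelial groups.

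The same rule in the sorted small intestinal library gave 347 cells of 2756 kept, of which 326 were unmixed, with a median of 3618 UMIs. Colon cells held more of the growth factor Ptn and of Igfbp5. They held less of the retinoic acid degrading enzyme Cyp26b1, of Fabp4, of Wnt2, and of 4 of 13 interferon response genes. Of 5150 genes 150 were called higher in colon (2.91%) and 101 lower (1.96%). Over unmixed cells of both tissues 20 of 3500 were higher (0.571%) and 70 lower (2%). In all cells of the rule, 2 of 2 fibroblast, 3 of 8 goblet, 1 of 7 epithelial and 0 of 5 macrophage markers were called higher in colon (medians 3.53, 1.496, 1.17 and 1.32). Over unmixed cells 3 of 7 goblet markers were still called (median 1.29). The part of these markers in the result was not tested beyond leaving out mixed cells. Tissue and library cannot be told apart here. The level in the other barcodes of each library is given where it bears on a gene.

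The highest ratio among the named genes was that of Ptn. It had 129 UMIs in the 209 colon cells and 5 in the 347 small intestinal ones, 109 against 2.98 CPM, a ratio of 5.19 (3.93 to 6.84) and 6.45 over unmixed cells. The other barcodes held 1.90 CPM in colon and 2.89 CPM in small intestine. Next were the sodium-calcium exchanger Slc8a1 (3.37), Pkhd1l1 (3.04, with UMIs in 31.5% against 4.60% of unmixed cells), Igfbp5 (2.42, at 1376 against 256 CPM), the neuronal microtubule gene Stmn2 (2.36), Rbp7 (1.93), Tgfbi (1.86) and Vim (1.77). All 8 had a higher ratio over unmixed cells. Apoe (2.13) and Lyz2 (1.65), which macrophages also express, met the rule for naming as well. Their levels over unmixed cells were 141 against 37.2 CPM for Apoe and 28.7 against 13.5 CPM for Lyz2. With cells above 10000 UMIs left out of both tissues their ratios were -0.48 and -0.72. The part of macrophage RNA in the ratios of Apoe and Lyz2 was not tested. Ccl21a, at 1.15 (1.75 over unmixed cells), was higher in colon without passing 4-fold.

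Lower in colon was first of all Cyp26b1, with 1 UMI in the 209 colon cells and 885 in the 347 small intestinal ones (-7.70 with the count set to 3, interval -14.6 to -6.80). It was seen in 69.3% of unmixed small intestinal cells and in none of the 181 in colon. The colon blood endothelial cells held it at 209 CPM. Cyp1b1 (2 against 378 UMIs, -6.47, -10.1 to -5.20) and Cyp1a1 (0 against 52, -3.61 or lower), both induced by the aryl hydrocarbon receptor, followed. So did Fabp4 (11 against 686 UMIs, -5.46), the protease Adamts15 (3 UMIs, -5.20, -7.49 to -3.62), the semaphorin Sema7a (-4.69), fibronectin Fn1 (-3.59), Stab2 (3 UMIs, -3.58, -5.91 to -1.95) and Wnt2 (-3.54). These genes all had ratios of -2.82 or lower over the unmixed cells.

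**Figure D4:**
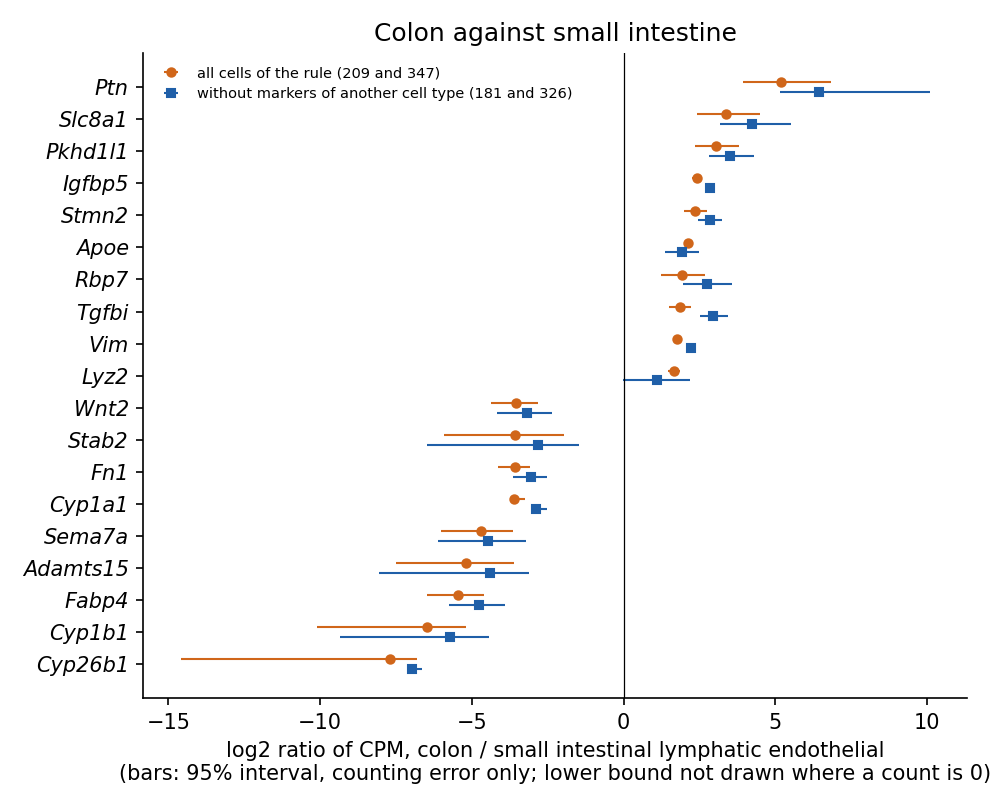
log2 ratio of CPM (x axis) of colon to small intestinal lymphatic endothelial cells for genes among the 10 highest and 10 lowest under the naming rule. Circles are all cells of the rule (209 and 347), squares the unmixed cells (181 and 326), and bars 95% intervals for counting error. The squares of Apoe and Lyz2 lie left of their circles, whereas those of the other 8 colon-higher genes lie right.

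Among the secreted niche factors with enough UMIs in this comparison, 1 of 8 (Ptn) was called higher and 3 lower (median -1.37, or 1 higher, 2 lower and -0.92). Rspo3 stood at 107 against 356 CPM over unmixed cells (-1.73, -2.16 to -1.33), and was seen in 19.9% and 62.3% of cells. Over unmixed cells Tgfb1 stood at 0.17 (-0.16 to 0.49) and Tgfb2 at 0.28 (-0.005 to 0.56), and both had ratios under 0 in all cells of the rule (-0.16 and -0.34). The interferon list had 13 of 13 genes with enough UMIs. In colon 10 of them were at least 2-fold lower, 4 of these past 4-fold, and 1 (Ifitm2) was at least 2-fold higher (median -1.68, or 9 and 1, with 2 past 4-fold, and -1.48). The median over all genes was -0.01 (-0.16 over unmixed cells), with 475 of 5150 genes at least 2-fold lower. Over unmixed cells the guanylate binding gene Gbp2 stood at 68.8 against 392 CPM (-2.51), Gbp4 at 15.3 against 109 CPM (-2.83) and the GTPase gene Iigp1 at 176 against 491 CPM (-1.48). In the other barcodes the order was reversed for Gbp2, at 19.0 CPM in colon and 3.56 in small intestine, and for Iigp1, at 102 and 5.43. For Gbp4 these levels were 2.33 and 2.99 CPM. The MHC class I light chain B2m stood at 633 against 1817 CPM (-1.52), where the other barcodes held 668 and 507 CPM. The retinoid list had 2 of 4 genes lower past 4-fold and 0 higher (median -2.73, or 2 lower, 1 higher and -2.21).

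In each of the other lists 0 to 3 genes were higher past 4-fold and 0 to 3 lower, in all cells. Their medians, in all cells and then in unmixed cells, were -0.66 and -0.19 for transcription factors, -0.89 and -0.71 for growth receptors, -0.75 and 0.30 for scavenger receptors, -0.49 and -0.32 for valve genes and -0.49 and 0.07 for leukocyte traffic. They were -0.32 and -0.13 for junctions, -0.57 and -0.11 for matrix, -0.50 and 0.07 for lipid and caveola genes, -0.08 and 0.36 for flow sensing and 0.52 and 0.48 for early response genes. The median was -0.80 and -1.06 for antigen presentation. Cell cycle genes had 3 of 7 higher (median 1.39), and over unmixed cells none had enough UMIs. The medians of the scavenger, leukocyte traffic, lipid and flow lists differed in sign between all and unmixed cells. The leukocyte traffic and flow medians were over the same 12 and 7 genes both times. The genes with enough UMIs fell from 8 to 6 in the scavenger list and from 13 to 11 in the lipid list. Their 2 medians are therefore over different genes.

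Variation among the cells was read from Lyve1 first. After thinning to 1000 UMIs, the 61 cells with the most Lyve1 were set against the 61 with the least. Of 1858 genes 141 were past 4-fold higher in the Lyve1-high cells (7.59%) and 262 lower (14.1%), and 23 mixed barcodes lay among the Lyve1-low cells and 0 among the Lyve1-high ones. The lowest ratios were those of macrophage and epithelial genes, such as Lyz2 (-6.01, -8.29 to -4.45), Apoe (-5.44, -6.28 to -4.72) and Epcam (-5.02, -6.02 to -4.17). Over unmixed cells, with 52 in each group, 0 of 591 genes were past 4-fold in either direction (0% and 0%), and 10 were past 2-fold higher and 5 lower. Lyve1 itself, used for the ranking, was 1.12 apart. The stress gene Hspb1 was 1.46 higher in the Lyve1-high cells and the nuclear RNA Kcnq1ot1 stood at -1.65. The median depth of these unmixed cells was 3861 UMIs in the Lyve1-high and 2394.5 in the Lyve1-low group, and the median mitochondrial share 3.86% and 7.73%. Of plasma cell markers 2 of 2 were past 2-fold lower in the Lyve1-high unmixed cells (median -1.12). Medians were -0.58 for 5 goblet markers and -0.69 for 1 epithelial marker, beside 0.17 over all genes. The part of depth, RNA quality and RNA of other cells in these ratios was not tested.

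Ptn was then followed across the colon cells. Of 156 unmixed cells thinned to 1000 UMIs, 23 had a Ptn UMI. Cells with Ptn held a mean of 5.52 Igfbp5 UMIs (4.60 to 6.57) against 1.60 (1.39 to 1.83) in the 133 cells without it, and 4.83 Vim UMIs (3.97 to 5.81) against 2.41 (2.16 to 2.69). Lyve1 was at 5.57 against 4.99 UMIs and Reln at 1.09 against 1.39, with overlapping intervals, and Ccl21a was at 7.26 (6.20 to 8.45) against 9.70 (9.18 to 10.24). This split was chosen after its values were seen, and cells of 1 library are not replicates.

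Visium sections, which the rule did not use, gave a view of the same marker in place. A spot is a small area that can hold several cells, so fewer cells of a type and less RNA per cell cannot be told apart. After spots were thinned to 2000 UMIs, 85 spots of section 1 and 66 of section 2 had a Mmrn1 UMI, and 1999 and 2100 had none. The 7 other lymphatic markers summed to 315 UMIs per 100 spots with Mmrn1 and 23.9 per 100 without in section 1, a log2 ratio of 3.72 (3.50 to 3.94). In section 2 these were 208 and 25.2, a ratio of 3.04 (2.76 to 3.32). Over both sections the ratio was 3.45. Ccl21a alone held 220 of the 268 UMIs of these markers in spots with Mmrn1 of section 1 and 103 of 137 in section 2. Without it the ratio was 2.79 (2.30 to 3.26) and 2.66 (2.09 to 3.20).
Among single genes Ccl21a had 220 UMIs in the 85 spots and 315 in the rest of section 1 (4.04), and 103 and 358 in section 2 (3.19). Reln had 14 and 16 UMIs (4.36, 3.22 to 5.49) and 12 and 33 (3.53, 2.44 to 4.52). Lyve1 stood at 2.83 and 2.60, Flt4 at 3.48 and 2.82, Cldn5 at 2.93 and 3.51, and Cavin2 at 2.18 and 2.20. Pdpn stood at 0.77 (-0.90 to 2.06) and 1.32 (-0.61 to 2.76), with intervals that held 0.

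The genes with the highest ratio in the single cells that are not among the lymphatic markers, summed together, held 91 UMIs in the spots with Mmrn1 and 360 in the others of section 1, a ratio of 2.57 (2.22 to 2.91). In section 2 they held 50 and 326 UMIs, a ratio of 2.29 (1.83 to 2.72). Cavin2 alone held 29 of the 91 and 150 of the 360 UMIs in section 1. Of the 24 highest genes other than Mmrn1, lymphatic markers included, 16 and 15 had at least 10 UMIs in the 2 sections. The interval lay above 0 for 12 and 8 of these, beside 7.97% and 6.32% of all genes with at least 10 UMIs. Spots with Mmrn1 had fewer UMIs before thinning (medians of 10895 and 12107, against 19769 and 20226). After thinning the ratio of summed marker UMIs was 1.19 and 1.47 for muscle, 1.25 and 0.90 for fibroblasts, -0.90 and -0.74 for goblet cells and -1.44 and -1.21 for colonocytes. For blood endothelial markers it was 0.48 (0.16 to 0.78) and 0.47 (0.10 to 0.81). Over all single genes with at least 10 UMIs the median ratio was 0.54 and 0.68, counts under 3 being set to 3. The blood endothelial list did not exceed these medians. Ly6c1, with most UMIs of that list, stood at -0.67 (-1.28 to -0.12) and -0.55 (-1.23 to 0.05), and without it the ratio was 1.43 (1.05 to 1.80) and 1.39 (0.94 to 1.82). The part of these neighbours in the gene ratios was not tested.

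**Figure D5:**
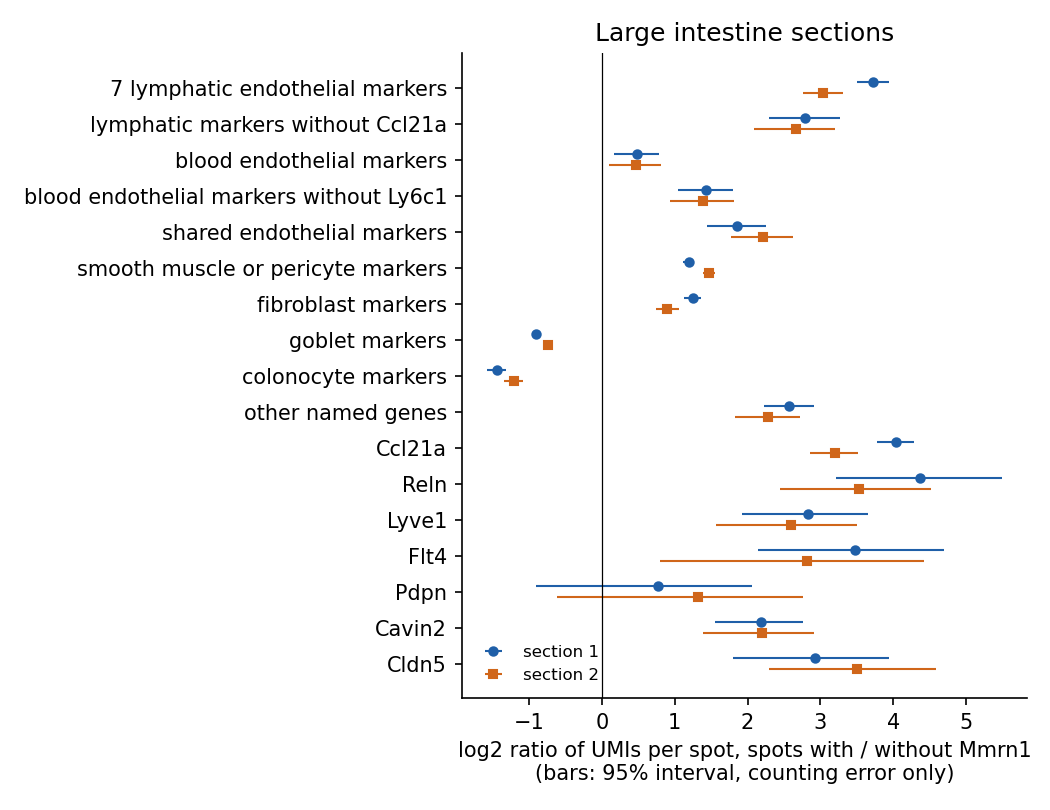
log2 ratio of UMIs per spot (x axis) between spots with and without a Mmrn1 UMI in the 2 large intestine sections, for marker lists and 7 genes. Circles are section 1, squares section 2, and bars 95% intervals for counting error. The 7 lymphatic markers together lie between 3 and 4 in both sections, and goblet and colonocyte markers lie below 0.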

How the data were processed

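The authors deposited UMI counts per gene and barcode, not normalized, and these counts were used as deposited. They came from Cell Ranger 6.0.1 with the mm10 genome, per the submitters' processing notes, and from Space Ranger 1.2.1 for the sections, per the file headers. The annotation release was not given in the sources used here. Gene names were used as the files pair them with IDs.

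UMIs were summed over the cells of a group and scaled to CPM. A ratio is the log2 ratio of CPM with the exact interval for 2 Poisson counts, a count under 3 being set to 3. Genes counted had at least 50 UMIs in the higher group and 10 over both. A further condition, added after the data were seen, was that the higher level could have passed 4-fold over the floor of 3 counts in the other group. Intervals given for shares are exact Clopper-Pearson ones, and a share of 0 carries the limit of 3 cells. Levels between genes are not compared, since lengths were not used.

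No barcode was removed as a doublet. Scrublet (scanpy 1.11.5) was run, and leaving out its highest scores, at 0.8% per 1000 cells, was an alternative. Mixed barcodes had 3 or more UMIs of each of at least 2 markers of another type. That rule, with the goblet and plasma cell lists not counted, was added after the data were seen, and with those lists 91 of the 209 cells met it.

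The 15 gene lists and 19 marker lists, and the choice of members, were made with earlier results of these data known. Beside listed genes, those named were the 25 highest and 10 lowest against other barcodes, 10 and 10 against blood endothelial cells, 10 and 10 against small intestine that were also at least 2-fold above the other barcodes of their tissue, and 8 and 8 between Lyve1-high and Lyve1-low cells. They needed detection in 10% of cells. Mitochondrial, ribosomal protein, immunoglobulin, sex and unnamed model genes were left out. Ptn was followed across cells after its values were seen. On simulated counts for the comparison with other colon barcodes (6301 genes, 200 of them changed 4-fold) the script recovered 100% of changed genes past 2-fold, and 96.1% of intervals held the true ratio. The counts were drawn as Poisson counts, which the interval assumes, without variation between cells. The simulation therefore checks the calculation and not how well the intervals cover these data. A few genes that met the naming rule or stood in the lists are not reported here.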

Additional observations from a re-analysis of the deposited data

Results flagged for a closer look

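For 3 genes the ratio of lymphatic endothelial cells to the other barcodes had opposite signs in the 2 tissues, with 1 library each, and the difference was not tested. Adamdec1, a fibroblast marker, stood at 1.42 in colon and -2.84 in small intestine, on 112 and 14 UMIs. Over unmixed cells it stood at -2.63 and -4.56, so that the signs were then alike. Fabp4 stood at -1.68 in colon and 3.78 in small intestine, on 11 and 686 UMIs (-0.51 and 4.26 over unmixed cells). Rbp7 stood at 3.42 and -1.82, on 62 and 23 UMIs (4.45 and -1.59 over unmixed cells).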

How the results depend on the processing

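Of 320 summary values recomputed under alternatives, nearly all of them counts, 263 stayed within their margin and 57 moved. The margin was 1.5 times for a count and the 95% interval for a ratio. Medians of lists were not among these values. Thinning to 1000 UMIs gave 151 higher and 243 lower genes against other barcodes (501 and 153), 67 and 43 against blood endothelium (218 and 190), 9 and 35 against small intestine (150 and 101), and 35 listed genes higher over all lists (82). At least 20 UMIs in the higher group gave 822 higher against other barcodes, 348 and 334 against blood endothelium and 310 and 170 against small intestine. At least 200 UMIs gave 143, 70 and 62, 31 and 50, and 39 listed genes. The mean of the CPM of each cell gave 924 lower genes against other barcodes and 86 higher against small intestine. Members without mixed barcodes gave 839 lower genes against other barcodes, or 600 with the goblet and plasma lists counted, which left 131 higher against blood endothelium. Against small intestine these 2 rules gave 20 and 9 higher. At most 10000 UMIs gave 809 lower and 21 higher in the same 2 comparisons. For the Lyve1-high and Lyve1-low cells (141 and 262) a split of all cells at the median gave 39 higher and leaving out the highest Scrublet scores 76 higher. Leaving out mixed barcodes gave 0 and 0 under both rules, and at most 10000 UMIs 1 and 5.

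For each list the genes with enough UMIs were held fixed, and those at least 4-fold higher were counted again with no count minimum. Of 195 such counts 179 stayed, and counts of lower genes were not recomputed. The interferon count of 1 was 0 without mitochondrial and ribosomal genes in the CPM, 0 with thinning and 0 with at least 2 Mmrn1 UMIs, and 3 under both rules on mixed barcodes and at most 10000 UMIs. The early response count of 1 was 0 with thinning, 2 with median-of-ratios scaling, 2 without the highest Scrublet scores, 2 with at most 10% mitochondrial UMIs, and 3 under both rules on mixed barcodes and at most 10000 UMIs. The retinoid count of 1 was 2 under those last 3 settings. Of the ratios of named genes, 171 of 525 against other barcodes, 40 of 280 against blood endothelium and 56 of 280 against small intestine moved by more than their interval without turning. The direction reversed in 2 cases, for Apoe (-0.48) and Lyz2 (-0.72) in colon against small intestine with at most 10000 UMIs.

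For the sections, the lymphatic marker ratio of 3.45 was 3.20 with no thinning and 3.99 with at least 2 Mmrn1 UMIs, leaving out 1 section at a time gave 3.04 to 3.72, and leaving out Ccl21a, chosen after seeing the data, gave 2.74. The blood endothelial marker ratio of 0.48 was 1.42 without Ly6c1, also chosen after seeing the data. No paired analysis was possible because each tissue had 1 single-cell library and no test was run. The limits are those of 209 shallow cells: genes under 50 UMIs in the higher group, among them Foxc2 against the other barcodes, were not called, and the spread between animals was not measured.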
